A study of Mus musculus with 12 samples.

Results

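Growth hormone is made by somatotrophs, an endocrine cell type of the anterior pituitary. The 7 genes described here are Gh itself and 6 genes tied to somatotroph identity and responses, namely Ghrhr, Ghsr, Pou1f1, Pappa2, Rxrg and Neurod4. They were found by matching the gene IDs of the count tables to mouse symbols, and all 7 were present among the 55421 gene IDs and passed the filter on low counts.

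RNA was measured by bulk sequencing of pituitaries from C57BL/6 mice that were dispersed to single cells and passed through flow cytometry, with 3 libraries in each of 4 groups. All mice carried a floxed Gpr101 gene (Gpr101fl/fl), which encodes a G protein-coupled receptor. In cre_AA14 and cre_vehicle the genotype was Cga-creAAVGpr101fl/fl, with an adeno-associated virus (AAV) that carries cre recombinase, which removes floxed sequence, and in ctrl_AA14 and ctrl_vehicle it was Cga-ctrlAAVGpr101fl/fl, with a control virus. AA14, a ligand, was given for 1 week in cre_AA14 and ctrl_AA14, and control vehicle was given in cre_vehicle and ctrl_vehicle. Cga encodes the alpha subunit shared by the gonadotropins and thyroid-stimulating hormone, so a Cga promoter would be active in gonadotrophs and thyrotrophs. The role of Cga in the virus and the age of the mice are not stated in the sources used here and neither is any sorting of cells before RNA isolation. It is also not stated whether each library is a different animal, and p-values therefore reflect variation among libraries that may be technical.

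Growth hormone-releasing hormone from the hypothalamus binds the receptor encoded by Ghrhr, which acts through Gs, cyclic AMP and CREB to raise growth hormone release and the number of somatotrophs. Ghrelin acts on the receptor encoded by Ghsr and also stimulates release, whereas somatostatin inhibits it. POU1F1 (Pit-1) is the POU-domain transcription factor required for somatotrophs, lactotrophs and thyrotrophs, and it binds the promoters of Gh and Ghrhr.

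RefSeq promoter windows (GRCm38.p6, from 250 bases before to 50 bases after a gene start) matched 5 of the members with 8 windows, namely Ghsr, Pou1f1, Pappa2, Rxrg and Neurod4. Those of Pou1f1 and Pappa2 that contain the core letters bound by POU1F1 are shown, because the Pou1f1 gene is known to be regulated by its own product and both genes are members. They lie at chr16:65520262-65520561 on the plus strand and at chr1:158958126-158958425 on the minus strand. The Pappa2 window surrounds a RefSeq start that lies inside the gene as annotated by GENCODE, not at its outermost start. Capitals mark each match on either strand to TATNCAT, the POU1F1 core, and to TGACG, a part of the cyclic AMP response element.
Pou1f1: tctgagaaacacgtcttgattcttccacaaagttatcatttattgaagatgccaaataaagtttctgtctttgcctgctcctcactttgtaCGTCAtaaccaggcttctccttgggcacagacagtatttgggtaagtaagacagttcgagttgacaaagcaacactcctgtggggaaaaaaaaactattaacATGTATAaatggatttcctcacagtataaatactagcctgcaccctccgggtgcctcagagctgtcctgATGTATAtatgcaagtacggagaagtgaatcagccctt
Pappa2: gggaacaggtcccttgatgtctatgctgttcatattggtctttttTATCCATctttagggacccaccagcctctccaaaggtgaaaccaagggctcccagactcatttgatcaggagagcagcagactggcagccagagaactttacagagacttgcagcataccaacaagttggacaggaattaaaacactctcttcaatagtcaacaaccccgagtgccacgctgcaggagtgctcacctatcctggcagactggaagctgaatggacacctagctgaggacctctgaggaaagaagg

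In the Pou1f1 window the POU1F1 core was found on the minus strand with its leftmost base at -57 and at 13 from the start, and the element part TGACG on the minus strand at -159. A TATAAA sequence lay at -33, and another at -54 overlapped the POU1F1 core at -57. In the Pappa2 window the POU1F1 core lay on the plus strand at -205. Over all 32851 promoter windows of this length, 8.84% held TATNCAT, 20.8% held TGACG and 13.6% held TATAAA. Of the 8 member windows, TATNCAT was in 2, which are the windows shown, TGACG in 1 and TATAAA in 1. The windows of Ghsr, Rxrg and Neurod4 held none of these. The full element TGACGTCA, which contains TGACG, was in 1.79% of all windows and in 0 of the 8 member windows. A match describes the letters only and shows no binding.

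Library totals ranged from 48693682 to 73388221 counts. Levels are given in CPM, counts relative to a library size scaled by the TMM method, and group values are mean ± SD (n = 3 libraries each). Gpr101, the gene that cre should cut, averaged 2.32 CPM over the 6 cre libraries (0.901 to 4.29) and 5.18 CPM over the 6 ctrl libraries (1.22 to 16.1), with overlapping ranges. The difference of log2(CPM + 0.5) was -0.64 (exact two-sided permutation test, p = 0.303), so the deletion was not detectable in these counts. Without ctrl_vehicle 3, which held the highest level, it was -0.23 (exact two-sided permutation test, p = 0.604). Malat1, a nuclear-retained long noncoding RNA, split the libraries, with 1105 to 1560 CPM in the 3 ctrl_AA14 libraries, cre_AA14 2 and cre_vehicle 1, against 199 to 549 CPM in the other 7. Oligodendrocyte markers, which belong to the neural lobe rather than to endocrine cells, had the highest summed levels in cre_vehicle 2, ctrl_vehicle 3 and ctrl_AA14 1.

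Compared per kilobase of exon, the members differed widely in level over the 12 libraries. Gh had a mean of 196800 RPKM (CPM per kilobase of exon), Ghrhr 54.3, Pou1f1 47.8, Neurod4 28.3, Rxrg 21.6, Pappa2 6.999 and Ghsr 0.986 RPKM. Across the 12 libraries the highest CPM was 3.96 times the lowest for Ghsr, 3.77 times for Ghrhr, 2.67 times for Gh, 2.56 times for Neurod4, 2.1 times for Pou1f1, 1.89 times for Rxrg and 1.64 times for Pappa2. Thus the 2 receptor genes varied most and the protease gene least.

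Gh (ENSMUSG00000020713, chr11:106300271-106301865, minus strand, GRCm38) was the most abundant member in every library. It had 188700, 212900 and 241900 CPM in ctrl_AA14, against 90440, 176300 and 116900 CPM in ctrl_vehicle. All 3 ctrl_AA14 libraries lay above the 3 ctrl_vehicle libraries. In cre mice it had 99590, 218000 and 203900 CPM in cre_AA14 and 211600, 110900 and 164400 CPM in cre_vehicle, and these groups overlapped almost entirely. The lowest of cre_AA14, cre_AA14 1, had the highest Fos and Hspa1a of all libraries, at 662 and 717 CPM. Both are markers of library state, and the part of that state in its Gh level was not tested. Gh means were 214500 ± 26610 CPM in ctrl_AA14 and 127900 ± 44000 CPM in ctrl_vehicle, with a log2 fold change of 0.75 (SE 0.33, edgeR quasi-likelihood test, adjusted p = 0.195). In these bulk samples, more somatotrophs and more growth hormone RNA per somatotroph cannot be told apart.

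Ghrhr (ENSMUSG00000004654, chr6:55376295-55388530, plus strand) encodes the receptor through which growth hormone-releasing hormone acts. Its level was 264.3, 271.6 and 309.4 CPM in ctrl_AA14, against 124.8, 159.8 and 83.99 CPM in ctrl_vehicle. The groups did not overlap, and the log2 fold change of 1.20 (SE 0.41, edgeR adjusted p = 0.144) was the largest among the 7 genes in this comparison. In cre_AA14 it was at 147.2, 241.5 and 128.4 CPM, and in cre_vehicle at 316.4, 90.6 and 134.9 CPM. Each cre group thus held 1 library with a level at or near those of ctrl_AA14 and 2 libraries near ctrl_vehicle, and the high library was the Malat1-rich one in both.

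Ghsr (ENSMUSG00000051136, chr3:27371351-27378010, plus strand) encodes the ghrelin receptor and was the lowest of the 7, with between 94 and 529 counts per library. It ran opposite to the other members, with 2.42, 2.85 and 3.25 CPM in ctrl_AA14, against 3.93, 7.52 and 6.59 CPM in ctrl_vehicle. The groups did not overlap, and the log2 fold change was -1.08 (SE 0.48, edgeR adjusted p = 0.202). The cre_AA14 libraries held 5.94, 1.90 and 5.67 CPM, and the cre_vehicle libraries 1.90, 4.71 and 5.80 CPM. The Malat1-rich library was the lowest of its group in both cases. Counts of Ghrhr per count of Ghsr were 109, 95.4 and 95.3 in ctrl_AA14, against 31.8, 21.3 and 12.7 in ctrl_vehicle. The same ratio was 24.8, 127 and 22.6 in cre_AA14 and 166, 19.2 and 23.3 in cre_vehicle. Transcripts of the 2 receptors thus stood at different proportions in the Malat1-rich libraries and in the rest. This split follows from the levels of the 2 genes, which moved in opposite directions, and is not a separate result.

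Pou1f1 (ENSMUSG00000004842, chr16:65520511-65535005, plus strand) had 224.8, 234.7 and 249.7 CPM in ctrl_AA14, against 138.5, 161.8 and 122.8 CPM in ctrl_vehicle. The ctrl_AA14 libraries were close together and all above the ctrl_vehicle libraries, with means of 236.4 ± 12.5 and 141.1 ± 19.6 CPM. The log2 fold change was 0.75 (SE 0.20), and its edgeR adjusted p of 0.141 was the smallest among the members. In cre_AA14 it was at 148.7, 257.6 and 175.1 CPM and in cre_vehicle at 193.9, 152.6 and 173.7 CPM, with overlap. An antisense gene, Gm49631, overlaps an exon of Pou1f1 and had 0.11 to 0.98 CPM, far below the 122.8 to 257.6 CPM of Pou1f1. Gh counts per Pou1f1 count overlapped between groups, at 840 to 969 in ctrl_AA14, against 653 to 1090 in ctrl_vehicle, and at 670 to 1160 in cre_AA14 and 727 to 1090 in cre_vehicle. The ratio of the hormone transcript to that of its activator did not separate AA14 from vehicle, while Ghrhr per Pou1f1 count stood at 1.16 to 1.24 in ctrl_AA14, against 0.684 to 0.987 in ctrl_vehicle. In cre mice Ghrhr per Pou1f1 count overlapped, at 0.733 to 0.99 in cre_AA14 and 0.594 to 1.63 in cre_vehicle.

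Neurod4 (ENSMUSG00000048015, chr10:130268152-130280240, minus strand) encodes a basic helix-loop-helix factor that is needed in mice for the maturation of somatotrophs. It had 98.5, 102.7 and 103.4 CPM in ctrl_AA14, against 73.0, 116.7 and 48.9 CPM in ctrl_vehicle. The ctrl_AA14 values were nearly equal and lay inside the wide ctrl_vehicle range, and the log2 fold change was 0.35 (SE 0.30, edgeR adjusted p = 0.489). In cre_AA14 it was at 66.7, 105.8 and 125.1 CPM and in cre_vehicle at 90.8, 87.4 and 118.9 CPM, with means of 99.2 ± 29.8 and 99.0 ± 17.3 CPM.

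Rxrg (ENSMUSG00000015843, chr1:167598384-167639623, plus strand) encodes retinoid X receptor gamma, a nuclear receptor that pairs with retinoic acid, thyroid hormone and other receptors. It had 54.1, 62.8 and 68.1 CPM in ctrl_AA14, against 42.3, 43.7 and 39.8 CPM in ctrl_vehicle. All ctrl_AA14 libraries were higher, with a log2 fold change of 0.56 (SE 0.19, edgeR adjusted p = 0.142). Levels of 46.1, 62.0 and 39.2 CPM were found in cre_AA14, beside 50.9, 36.1 and 49.5 CPM in cre_vehicle, and these groups overlapped.

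Pappa2 (ENSMUSG00000073530, chr1:158711727-158980490, minus strand) encodes a metalloproteinase that cleaves insulin-like growth factor binding proteins IGFBP3 and IGFBP5 and so frees the growth factors that act downstream of growth hormone. It had 81.7, 89.5 and 71.2 CPM in ctrl_AA14, against 59.4, 75.0 and 63.6 CPM in ctrl_vehicle. The groups overlapped, and the log2 fold change was 0.29 (SE 0.18, edgeR adjusted p = 0.326). In cre_AA14 it was at 68.8, 77.7 and 64.1 CPM and in cre_vehicle at 84.2, 54.4 and 75.1 CPM. An uncharacterised transcript on the same strand, 1600012P17Rik, overlaps a Pappa2 exon and had at most 0.490 CPM in any library.

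**Figure D1:**
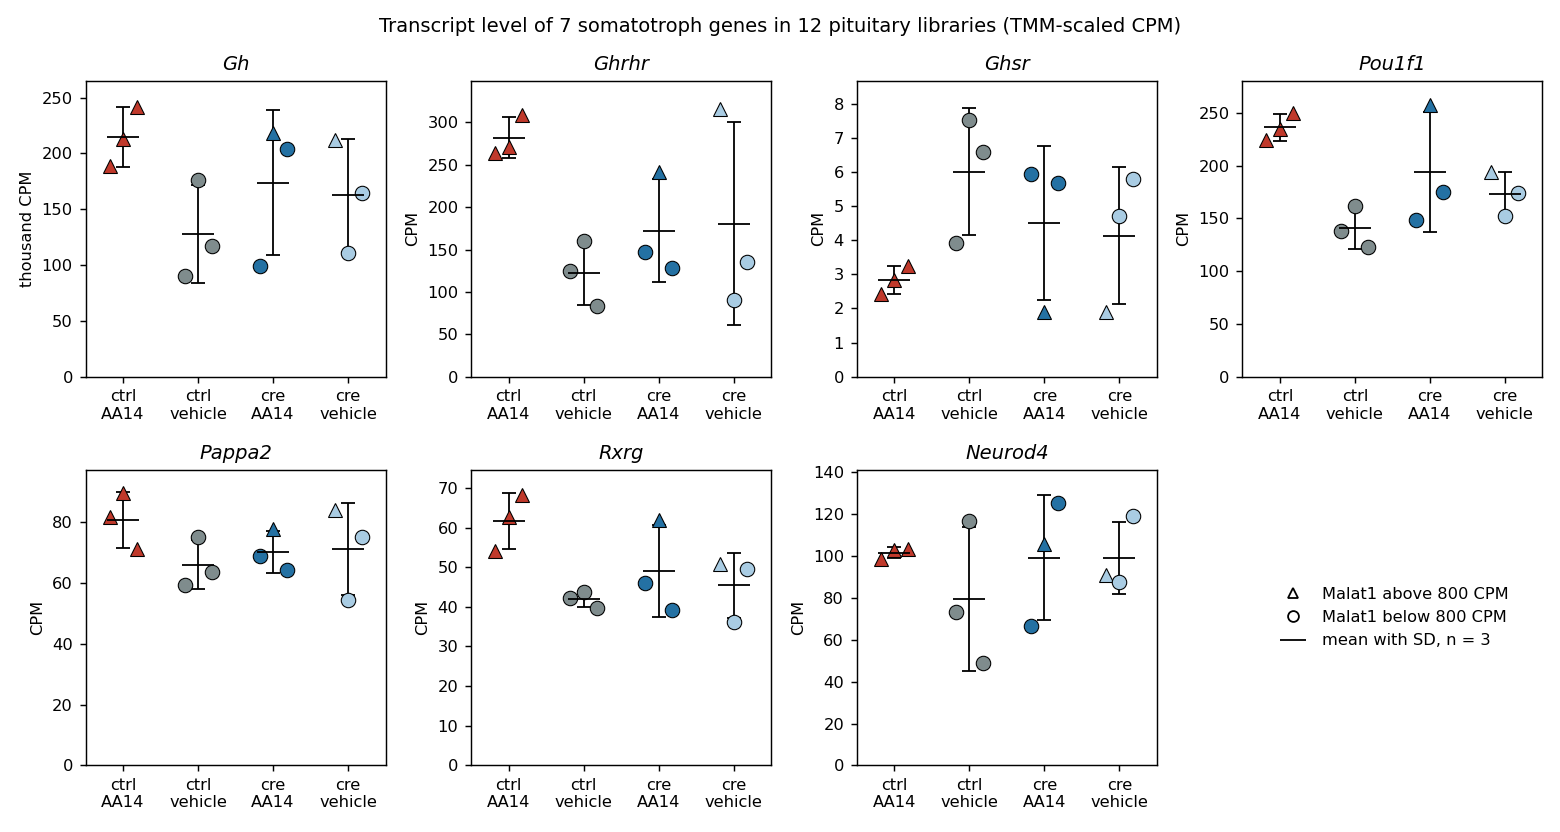
Level of each gene in CPM (vertical axes from 0, in the unit written beside each panel) in the 12 libraries, by group. Points are libraries, bars are mean and SD of 3 libraries, and triangles mark libraries with Malat1 above 800 CPM. Ghrhr lies at 241.5 to 316.4 CPM in the triangles and at 83.99 to 159.8 CPM in the circles, whichever group they belong to.

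When the 4 groups were ordered by mean level, ctrl_AA14 was highest and ctrl_vehicle lowest for Gh, Ghrhr, Pou1f1, Pappa2, Rxrg and Neurod4, and the order of these groups was reversed for Ghsr. The cre groups lay between them. For every member, neighbouring groups in that order had overlapping ranges, and for Pappa2 and Neurod4 the highest and lowest groups overlapped too.

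The first comparison asked what AA14 did in mice with the control virus. With edgeR, 0 of 7 members passed an adjusted p of 0.05, against 0.00442% of all 22630 genes (1 gene), while 5 of 7 (Gh, Ghrhr, Ghsr, Pou1f1 and Rxrg) were below 0.05 before adjustment, as were 23.8% of all genes. Without ctrl_vehicle 3 only 2 were, Pou1f1 and Rxrg (3269 of 23436 genes). There were 3 without ctrl_AA14 2 (3961 of 23529 genes) and 3 without ctrl_AA14 3 (3203 of 23502 genes). Without ctrl_AA14 1 there were 4 (4122 of 23505 genes), without ctrl_vehicle 1 also 4 (5119 of 23686 genes), and without ctrl_vehicle 2 still 5 (5451 of 23580 genes). With the Malat1 state of a library as a term, 0 were (458 of 22630 genes). DESeq2 called 2 members, against 12.7% of the genes it tested: Ghrhr (log2 fold change 1.22, adjusted p = 0.0387) and Pou1f1 (0.77, adjusted p = 0.0208). An edgeR fit to the ctrl libraries only called Ghrhr, Pou1f1 and Rxrg, with adjusted p of 0.0276, 0.0234 and 0.0334, against 10.6% of genes. Limma-voom called the same 3, with adjusted p of 0.0225, 0.0171 and 0.0468, against 15.1% of genes. Gh and Ghsr passed in none of these fits. The log2 fold change was positive for 6 members and negative for Ghsr, with a median of 0.56 over the 7, against -0.02 over all genes. The groups did not overlap for 4 members that were higher (Gh, Ghrhr, Pou1f1 and Rxrg), against 17.6% of all genes, and for 1 that was lower (Ghsr), against 20.1%.

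In cre mice the AA14 comparison gave differences near 0. With edgeR, 0 of 7 members passed the adjusted threshold and 0 of 7 were below 0.05 before adjustment, against 0.0% and 2.29% of all genes, and DESeq2 and limma-voom also called 0 members. The log2 fold changes were 0.16 for Pou1f1 (SE 0.20), 0.12 for Ghsr (SE 0.48), 0.11 for Rxrg (SE 0.19), 0.10 for Gh (SE 0.32), -0.02 for Pappa2 (SE 0.18) and -0.07 for Ghrhr (SE 0.41), each with an edgeR adjusted p of 1. For Neurod4 it was 0.00 (SE 0.30), with a sign that turned under other scalings. Groups overlapped for all 7 members, against 5.86% of genes without overlap. A p that misses the threshold does not show that AA14 had no effect.

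The difference between the AA14 effects (effect in cre mice minus effect in ctrl mice) was tested directly. It was -1.26 for Ghrhr (SE 0.58), 1.20 for Ghsr (SE 0.68), -0.65 for Gh (SE 0.46), -0.58 for Pou1f1 (SE 0.28), -0.45 for Rxrg (SE 0.27), -0.35 for Neurod4 (SE 0.42) and -0.31 for Pappa2 (SE 0.25), on the log2 scale. With edgeR, 0 of 7 members passed, with adjusted p of 0.631 to 0.788, and 0 of 7 were below 0.05 before adjustment, against 0.00442% and 7.03% of all genes. DESeq2 and limma-voom called 0 members. Below 0.05 before adjustment were 2 members with RLE factors (1508 of 22630 genes), 2 in DESeq2 (2053 of 28171 genes) and 3 in limma-voom (3130 of 22630 genes). Library sizes without 7 hormone genes gave 1 (1525 of 22630 genes) and no low-count filter 1 (2153 of 35000 genes). There was 1 without the 3 libraries rich in oligodendrocyte markers (1132 of 22930 genes), and 4 without the Malat1-rich cre libraries (3116 of 23341 genes). With a library left out there were 4 without cre_AA14 2 (4059 of 23584 genes) and 3 without cre_vehicle 2 (2399 of 23493 genes). There were 2 without ctrl_vehicle 2 (1832 of 23580 genes) and 1 without cre_vehicle 3 (1949 of 23726 genes). In each of these settings 0 members passed the adjusted threshold. A different response to AA14 in cre and ctrl mice was therefore not shown for any of these genes.

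Cre was also compared with ctrl under each treatment. Under vehicle, members had log2 fold changes between -0.54 (Ghsr) and 0.56 (Ghrhr), 0 of 7 passed in edgeR and 0 were below 0.05 before adjustment, against 0.00442% and 2.0% of genes, and groups overlapped for all 7, while 4.92% of genes did not overlap. Under AA14, they lay between -0.71 (Ghrhr, SE 0.41) and 0.67 (Ghsr), and 0 of 7 passed and 0 were below 0.05 before adjustment, against 0.0% and 8.52% of genes. DESeq2 and limma-voom called 0 members in either. Only Ghrhr did not overlap under AA14, with 128.4 to 241.5 CPM in cre_AA14, against 264.3 to 309.4 CPM in ctrl_AA14, where 14.1% of all genes did not overlap and 6.76% were lower. Without cre_AA14 2 and cre_vehicle 1, the Malat1-rich cre libraries, which were the highest for Ghrhr in their groups, its log2 fold change was -1.02 (SE 0.27, edgeR adjusted p = 0.0474), and 8.03% of genes passed (1874, against 0 with all libraries). That setting leaves no Malat1-rich library in cre_AA14 and only Malat1-rich ones in ctrl_AA14, so cre and the Malat1 state cannot be told apart in it. Before adjustment, 4 members were below 0.05 in that setting (5495 of 23341 genes were) and 4 in limma-voom (5893 of 22630 genes). There were also 4 without cre_AA14 2 alone (4440 of 23584 genes) and 1 with the groups compared only (2099 of 21176 genes). For cre against ctrl under vehicle, 1 member was below 0.05 before adjustment without cre_vehicle 2 (817 of 23493 genes). Without ctrl_vehicle 2 it was also 1 (800 of 23580 genes). These comparisons share groups with the AA14 comparisons, so their values are not independent of them.

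**Figure D2:**
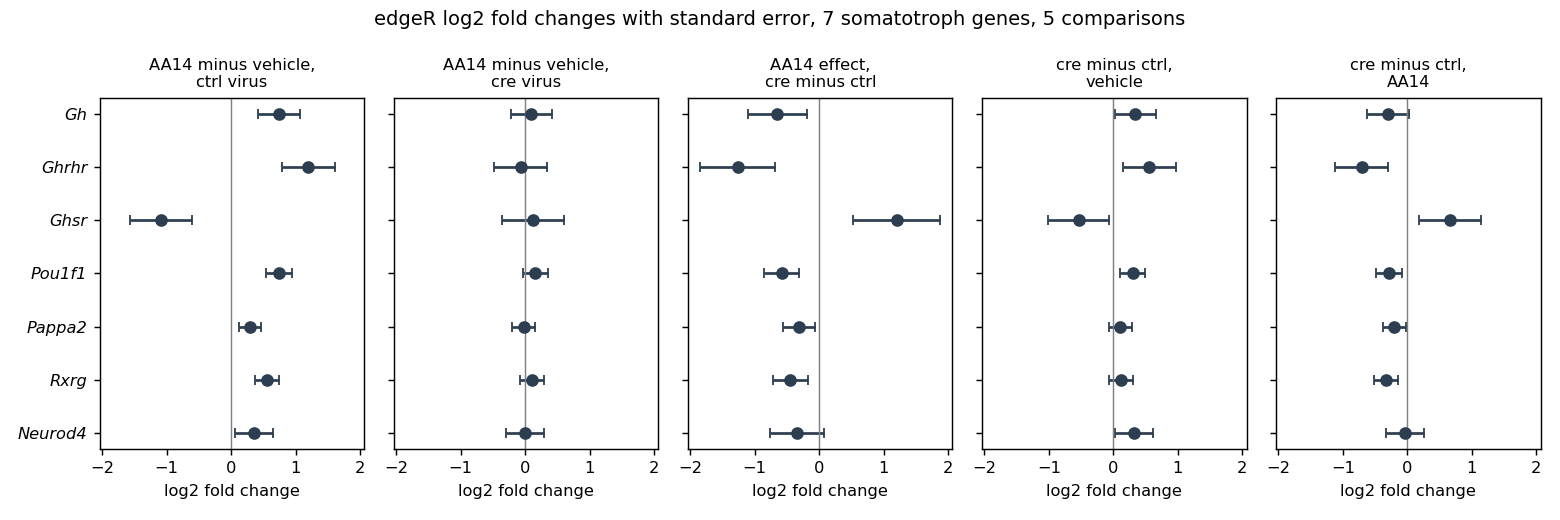
Log2 fold changes of the 7 genes from edgeR with standard errors (horizontal axis), 1 panel for each of 5 comparisons. AA14 fold changes lie between -1.08 (Ghsr) and 1.20 (Ghrhr) in mice with the control virus and between -0.07 (Ghrhr) and 0.16 (Pou1f1) in mice with the cre virus. None passed the adjusted threshold in edgeR, and neither did the difference between them.

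Levels of the members moved with the Malat1 state of a library. Ghrhr was at 241.5 to 316.4 CPM in the 5 Malat1-rich libraries and at 83.99 to 159.8 CPM in the other 7. Pou1f1 was at 193.9 to 257.6 CPM, against 122.8 to 175.1 CPM, and Rxrg at 50.9 to 68.1 CPM, against 36.1 to 49.5 CPM. Ghsr was at 1.90 to 3.25 CPM, against 3.93 to 7.52 CPM. Thus 3 members were higher and 1 was lower with no overlap, against 9.23% and 13.1% of all genes, and Gh, Pappa2 and Neurod4 overlapped. In both cre groups the Malat1-rich library was the highest for Gh, Ghrhr, Pou1f1, Pappa2 and Rxrg, the lowest for Ghsr and the middle for Neurod4.

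Within a state, AA14 and vehicle libraries lay together for Ghrhr. Among Malat1-rich libraries it was at 241.5 to 309.4 CPM in the 4 with AA14 and at 316.4 CPM in the single one with vehicle, and among the others at 128.4 to 147.2 CPM in the 2 with AA14 and at 83.99 to 159.8 CPM in the 5 with vehicle. For Pou1f1 the Malat1-rich values were 224.8 to 257.6 CPM with AA14 and 193.9 CPM with vehicle, and the others 148.7 and 175.1 CPM with AA14 and 122.8 to 173.7 CPM with vehicle. With the state as a term of the edgeR fit, the AA14 log2 fold change in ctrl mice was 0.04 for Ghrhr (SE 0.35), 0.28 for Pou1f1 (SE 0.20), 0.16 for Rxrg (SE 0.21), 0.17 for Gh (SE 0.43) and 0.46 for Ghsr (SE 0.38), each with an adjusted p of 1. All ctrl_AA14 libraries were Malat1-rich and no ctrl_vehicle library was, so within ctrl mice AA14 and this state cannot be told apart, and this term is estimated from the cre libraries alone. Transcript GC content was 38.0% for Neurod4, 38.4% for Pou1f1, 45.7% for Ghsr, 48.1% for Pappa2, 52.6% for Ghrhr, 54.6% for Rxrg and 56.7% for Gh, against a median of 49.4% over the genes tested, and its part in the results was not tested.

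**Figure D3:**
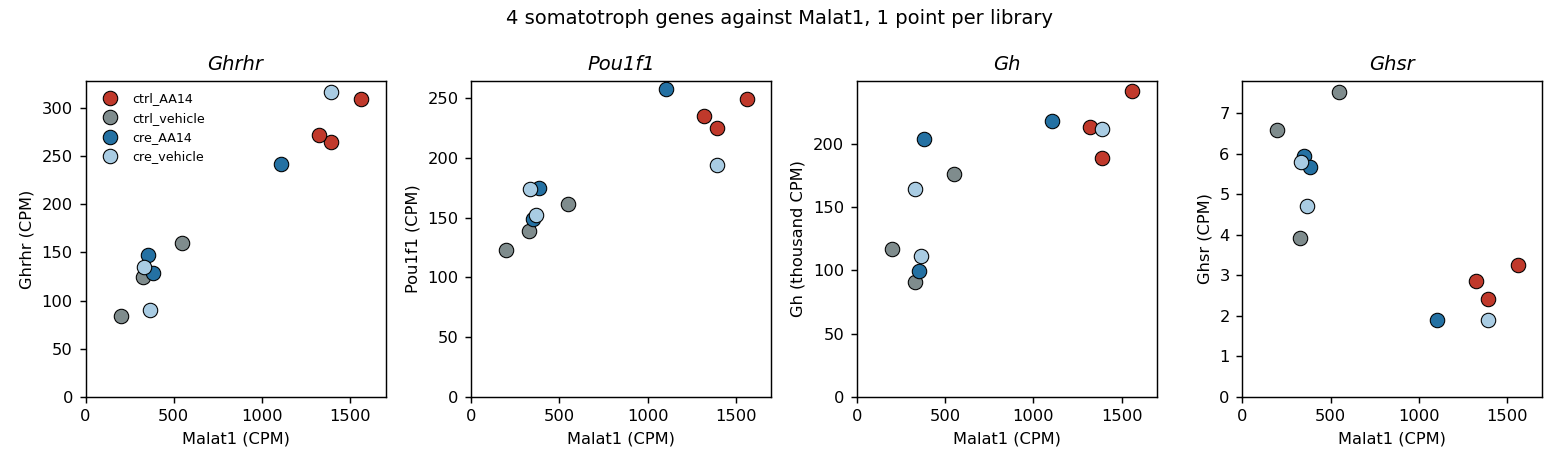
CPM of Ghrhr, Pou1f1, Gh and Ghsr (vertical axes from 0, in the unit written beside each panel) against CPM of Malat1 (horizontal axis), 1 point per library, coloured by group. Libraries form a Malat1-rich cluster at 1105 to 1560 CPM that holds all of ctrl_AA14 and 1 library of each cre group, and a second cluster at 199 to 549 CPM.

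**Figure D4:**
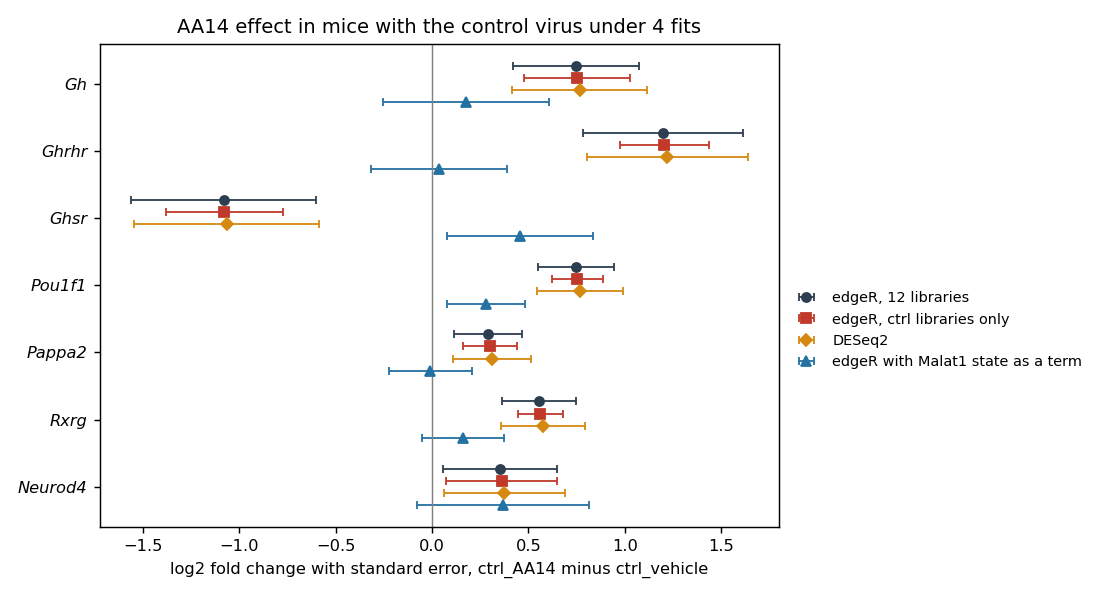
AA14 log2 fold change in mice with the control virus (horizontal axis, with standard error) from edgeR on 12 libraries, edgeR on the 6 ctrl libraries, DESeq2, and edgeR with Malat1 state as a term. The first 3 fits lie close together for each gene, and the fourth lies nearer 0 for Gh, Ghrhr, Pou1f1, Pappa2 and Rxrg, on the other side of 0 for Ghsr, and at 0.37 for Neurod4.

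Markers of some other cell types moved as well. Summed over the list, endothelial markers (4 genes) were at 74.0 to 104 CPM in ctrl_AA14, against 114 to 141 CPM in ctrl_vehicle, and macrophage markers (4 genes) at 70.9 to 97.7 CPM, against 108 to 156 CPM. The hypothalamic hormone genes Avp and Oxt were at 7.18 to 9.92 CPM in ctrl_AA14, against 41.0, 26.7 and 398 CPM in ctrl_vehicle. The highest sum was in ctrl_vehicle 3, a library rich in oligodendrocyte markers. In cre mice their sum was 56.7, 6.38 and 39.3 CPM in cre_AA14 and 7.16, 31.2 and 38.9 CPM in cre_vehicle. The lowest of each cre group was its Malat1-rich library, so this sum split the libraries by Malat1 state. In ctrl_AA14, thyrotroph markers (3 genes) were higher than in ctrl_vehicle, at 520 to 659 CPM, against 223 to 466 CPM. Gonadotroph markers (4 genes) were too, at 2309 to 2329 CPM, against 1238 to 1980 CPM. Endothelial, thyrotroph and gonadotroph sums also split by Malat1 state. The Malat1-rich cre_vehicle 1 had 97.6, 604 and 2266 CPM of these, and cre_AA14 2 had 97.7, 563 and 2575 CPM. Other cre libraries had at least 119, at most 451 and at most 1911 CPM. Macrophage sums did not split so, since cre_vehicle 3 had 91.5 CPM and cre_vehicle 1 had 106 CPM. Lactotroph markers (4 genes) overlapped, at 34120 to 56280 CPM in ctrl_AA14, against 35750 to 67000 CPM in ctrl_vehicle. Sums of corticotroph, melanotroph, stem or folliculostellate, pituicyte, oligodendrocyte, erythroid, and fibroblast or mural markers also overlapped between these groups. The corticotroph and melanotroph sums were nearly all Pomc, and the lactotroph sum nearly all Prl. Yet Sox2 was lower in ctrl_AA14, at 10.2 to 13.8 CPM, against 31.4 to 59.1 CPM in ctrl_vehicle. Sox2 split by Malat1 state as well. The Malat1-rich cre_vehicle 1 had 15.7 CPM and cre_AA14 2 had 10.9 CPM, against at least 35.0 CPM in other cre libraries. Cyp2f2, of the same stem or folliculostellate list, was higher in ctrl_AA14, at 252 to 316 CPM, against 183 to 202 CPM in ctrl_vehicle. S100b and Aldh1a2 overlapped. Of the pituicyte genes, Rax, Nkx2-1 and Lhx2 were lower without overlap, while Col25a1 and Vcan overlapped. Over all genes, 20.1% were lower and 17.6% higher without overlap. No marker of the 14 lists was at 0 in a whole group, and the part of these shifts in the member differences was not tested. Without the 3 libraries rich in oligodendrocyte markers, 0 of 7 members passed in ctrl mice, against 2 of 22930 genes. Before adjustment, 3 of 7 members were below 0.05 in that setting, against 2380 of 22930 genes.

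Other genes of the pathway were set beside the members in ctrl mice, where AA14 and the Malat1 state coincide and 49.1% of all genes had a positive log2 fold change. Of 19 genes that carry the GHRH signal through Gs, cyclic AMP and CREB, 2 were higher and 17 lower in ctrl_AA14 than in ctrl_vehicle, with 0 passing the adjusted threshold, 10 lower at an unadjusted p of 0.05 (15.8% of all genes were) and a median log2 fold change of -0.64. Adcy5, an adenylyl cyclase, averaged 67.6 ± 8.73 CPM in ctrl_AA14 and 142 ± 21.9 CPM in ctrl_vehicle, a log2 fold change of -1.07. Prkar2a, a regulatory subunit of protein kinase A, averaged 27.1 ± 1.81 CPM in ctrl_AA14 and 51.8 ± 14.5 CPM in ctrl_vehicle. Both had an edgeR adjusted p of 0.141. Gnas, which encodes the Gs alpha subunit, had 2896 ± 294 CPM in ctrl_AA14 and 3381 ± 515 CPM in ctrl_vehicle.

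Of 16 receptors for other signals that reach somatotrophs, 6 were higher and 10 lower, with 0 passing and a median of -0.30. The 3 that were lower at an unadjusted p of 0.05 are a share near the 15.8% of all genes, so the count is not a result about these receptors. Sstr1, a somatostatin receptor, averaged 6.24 ± 0.868 CPM in ctrl_AA14 and 37.8 ± 6.14 CPM in ctrl_vehicle (log2 fold change -2.60, SE 0.71, edgeR adjusted p = 0.141). In cre mice it averaged 26.6 ± 19.6 CPM in cre_AA14 and 35.1 ± 22.7 CPM in cre_vehicle. Sstr2 and Sstr5, other somatostatin receptors, had log2 fold changes of 0.17 and 0.24 in ctrl mice. Thra, a thyroid hormone receptor, averaged 79.0 ± 10.7 CPM in ctrl_AA14 and 237 ± 95.4 CPM in ctrl_vehicle.

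Among 16 other transcription factors of pituitary lineages, 4 were higher and 12 lower, with 0 passing and a median of -0.73. At an unadjusted p of 0.05, 6 were lower, against 15.8% of all genes. Nhlh2, a basic helix-loop-helix factor, averaged 1.34 ± 0.549 CPM in ctrl_AA14 and 3.85 ± 0.344 CPM in ctrl_vehicle, and Six3, a homeobox factor, averaged 25.4 ± 4.01 CPM in ctrl_AA14 and 61.0 ± 9.09 CPM in ctrl_vehicle. Lhx3, which acts upstream of Pou1f1 in pituitary development, had 85.8 ± 3.40 CPM in ctrl_AA14 and 79.8 ± 22.1 CPM in ctrl_vehicle.

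Among the other retinoid X receptors and their 10 partners, 12 genes in all, 5 were higher and 7 lower, with 0 passing and a median of -0.49. At an unadjusted p of 0.05, 6 were lower, against 15.8% of all genes. Rxra averaged 23.3 ± 3.33 CPM in ctrl_AA14 and 53.9 ± 9.88 CPM in ctrl_vehicle (log2 fold change -1.21), opposite in sign to Rxrg. Around Pappa2, 11 genes of IGF binding protein cleavage had 4 higher and 7 lower, with 0 passing and a median of -0.41. At an unadjusted p of 0.05, 1 was higher (8.03% of all genes were) and 4 were lower (15.8% were). Igfbp5, a substrate of Pappa2, averaged 478 ± 124 CPM in ctrl_AA14 and 778 ± 73.3 CPM in ctrl_vehicle (log2 fold change -0.70), while Igfbp3 had 37.8 ± 5.91 CPM in ctrl_AA14 and 36.5 ± 3.37 CPM in ctrl_vehicle. Igf2, a growth factor bound by these proteins, was at 19.2, 11.8 and 11.6 CPM in ctrl_AA14, against 32.2, 19.1 and 312.9 CPM in ctrl_vehicle. The groups overlapped, and the highest level was in ctrl_vehicle 3, a library rich in oligodendrocyte markers. Igfbp4, which the related protease Pappa cleaves, averaged 25.2 ± 5.60 CPM in ctrl_AA14 and 85.7 ± 5.78 CPM in ctrl_vehicle.

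In cre mice these 5 lists had AA14 medians of -0.09 for receptors, -0.12 for Gs and cyclic AMP signalling, -0.05 for lineage factors, -0.01 for retinoid X receptors and partners and 0.10 for binding protein cleavage, against 0.00 over all genes, with 0 genes passing in each.

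**Figure D5:**
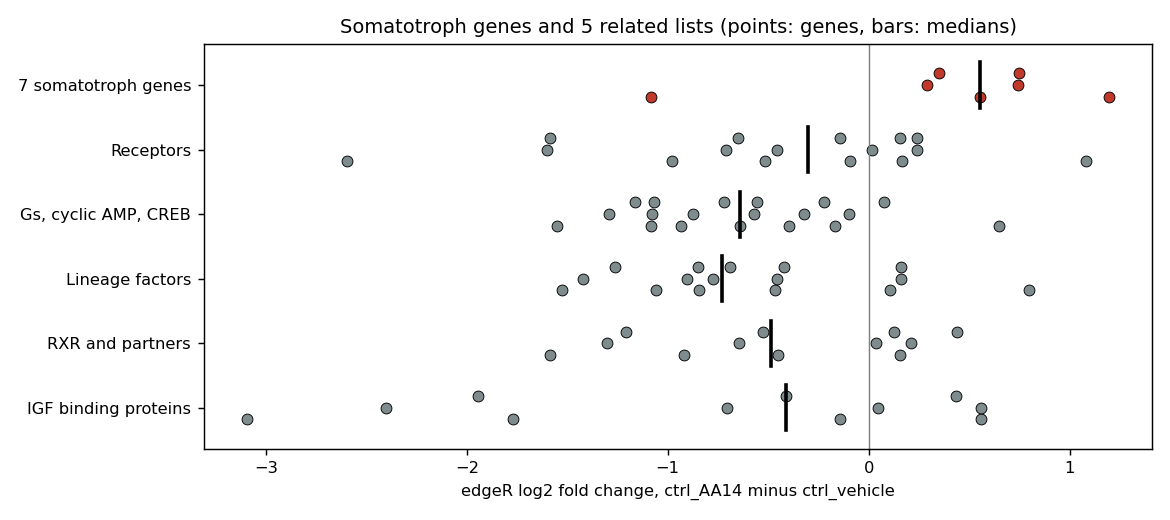
AA14 log2 fold change in mice with the control virus (edgeR, horizontal axis) for the 7 members and 5 lists of related genes. Each point is a gene and each bar a median, at 0.56 for the members and between -0.73 and -0.30 for the lists.

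Genes with the library-to-library pattern most like each member were ranked by the root-mean-square difference of centred log2(CPM + 0.5) over the 12 libraries, among 10200 genes. For Ghrhr they were Pan2 (0.092), Firre (0.144) and Sfi1 (0.146), and for Pou1f1 Ints13 (0.096), Plpbp (0.097) and Zfp410 (0.101). For Gh they were Ctns (0.149), Slc43a1 (0.181) and Yif1a (0.184), and for Ghsr B4galnt3 (0.233), Phf13 (0.235) and Clec16a (0.241). Pappa2 was closest to Polr2e (0.073), Sec61a1 (0.076) and Psmd9 (0.087), Rxrg to Stx3 (0.101), Shld1 (0.103) and Sbno1 (0.104), and Neurod4 to Dio2 (0.182), Tbc1d8b (0.183) and Pggt1b (0.186). Between members the smallest difference was that of Pou1f1 and Rxrg (0.161), followed by Pappa2 and Rxrg (0.186), and the largest that of Ghrhr and Ghsr (1.165). Gh was nearer to Pou1f1 (0.262) than to any other member. All of these share the same 12 libraries and their depth, and a gene with little variation is close to many others.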

How the data were processed

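The deposited tables hold raw counts by gene, 1 table for each library. Per the labels' protocols, TRIzol was used for RNA, NEBNext Ultra libraries were read as 150 bp pairs on a NovaSeq, and hisat2 did the mapping. The submitters' processing notes list featureCounts 1.5.0-p3, DESeq 1.8.3 and GRCm38. The annotation release, strand setting and treatment of reads that match several genes are not given in these sources, which leaves overlapping genes uncertain. Of 55421 IDs, 55154 matched a symbol, and IDs that did not took up to 0.0135% of the counts of a library. Coordinates, lengths and GC content come from a GENCODE M21 annotation of GRCm38, and promoter sequence from RefSeq.

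Genes were filtered with filterByExpr, scaled by TMM and tested with quasi-likelihood F tests in edgeR 4.0.16 with all 12 libraries and a mean for each group, and p-values were adjusted over 22630 genes by the Benjamini-Hochberg method at 0.05. An SE was computed as the size of the log2 fold change over the root of F. Alternatives used DESeq2 1.42.0, limma 3.58.1 (voom with quality weights), other size factors and filters, the groups compared only, a replicate block and each library left out. Settings without 3 oligodendrocyte-rich or 2 Malat1-rich libraries, and with Malat1 above 800 CPM as a term, were chosen after seeing the data. The members and lists were chosen with earlier results of these data known. Named genes are the members, Gpr101, the 3 genes most like each member (mean of at least 10 CPM) and, from each list, the 2 of smallest p. Malat1, Gnas, Sstr2, Sstr5, Lhx3, Igfbp3, Igfbp5, Fos, Hspa1a, the genes that overlap a member, the marker sums and the single markers were named after their values were seen. No 2 libraries of a group agreed within sampling noise.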

Additional observations from a re-analysis of the deposited data

How the results depend on the processing

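Other size factors, filters and left-out libraries changed no count of members called, which stayed at 0 in each of the 5 comparisons. In ctrl mice, 2 members were called by DESeq2, 3 by edgeR on the groups compared only and 3 by limma-voom. Under AA14, cre against ctrl called 1 member without the 2 Malat1-rich cre libraries. The counts over all genes moved more. For AA14 in ctrl mice the count was 1, against 2162 in DESeq2, 2266 with the groups compared only, 3409 in limma-voom, 2 with no low-count filter, 4 with the Malat1 term, 2 without the oligodendrocyte-rich libraries, and 1 to 5 with a library left out. For AA14 in cre mice it was 0, against 14 in DESeq2, 1 without the oligodendrocyte-rich libraries, and 0 to 2 with a library left out. For the difference between these effects it was 1, against 27 in DESeq2, 0 in limma-voom, 3 without the oligodendrocyte-rich and 5 without the Malat1-rich libraries, 4 with the Malat1 term, and 1 to 3 with a library left out. For cre under vehicle it was 1, against 19 in DESeq2, 2 in limma-voom, 2 with RLE factors, 3 without the oligodendrocyte-rich and 2 without the Malat1-rich libraries, 3 with the Malat1 term, and 1 to 3 with a library left out. For cre under AA14 it was 0, against 34 in DESeq2, 1 with the groups compared only, 1874 without the Malat1-rich libraries, 2 with the Malat1 term, and 0 to 1 with a library left out.

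The AA14 log2 fold change of Gh in ctrl mice, which passed in no setting (adjusted p from 0.0905 to 1), was 0.55 to 1.05 with a library left out and 0.17 (SE 0.43) with the Malat1 term. Its effect in cre mice was -0.11 to 0.37 with a library left out and -0.13 without the oligodendrocyte-rich libraries. Its difference between these effects was -0.95 to -0.36, its cre effect under vehicle 0.11 to 0.65, and its cre effect under AA14 -0.49 to -0.02, each with a library left out, and the last was 0.056 with the Malat1 term. The sign of these log2 fold changes also turned. With the Malat1 term they were 0.46 for Ghsr and -0.01 for Pappa2 (AA14 in ctrl mice), 0.064 for Ghrhr (AA14 in cre mice), 0.029 for Ghrhr and -0.36 for Ghsr (difference between the effects), -0.007 for Ghrhr, -0.002 for Pappa2 and -0.018 for Rxrg (cre under vehicle), and 0.022 for Ghrhr and -0.53 for Ghsr (cre under AA14). In limma-voom they were 0.10 for Ghrhr, -0.006 for Ghsr and -0.093 for Rxrg (AA14 in cre mice), -0.016 for Ghrhr (cre under vehicle) and 0.11 for Neurod4 (cre under AA14). Without the Malat1-rich cre libraries they were 0.28 for Ghrhr, -0.016 for Pou1f1, 0.033 for Pappa2, -0.009 for Rxrg and -0.11 for Neurod4 (AA14 in cre mice), and -0.12 for Ghrhr and -0.028 for Pappa2 (cre under vehicle). Without the oligodendrocyte-rich libraries they were -0.04 for Rxrg and -0.093 for Neurod4 (AA14 in cre mice). For Neurod4 in cre mice they were also -0.013 with RLE factors, -0.005 with hormone-free library sizes, -0.008 with no filter and -0.018 in DESeq2. With a library left out, effects in cre mice ranged from -0.40 to 0.60 for Ghrhr, -0.23 to 0.48 for Ghsr, -0.11 to 0.31 for Pou1f1, -0.18 to 0.11 for Pappa2, -0.10 to 0.23 for Rxrg and -0.21 to 0.21 for Neurod4. Cre effects under vehicle ranged from -0.12 to 0.88 for Ghrhr and from -0.028 to 0.27 for Pappa2, and under AA14 from -0.23 to 0.19 for Neurod4. For Gpr101 the difference was -0.88 to -0.23. The cause of these changes was not tested.

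Same-numbered libraries of different groups did not consistently deviate together (18 pairs, r from -0.52 to 0.34, 6 of them above 0.1). Libraries with different numbers reached an r of 0.63 (ctrl_vehicle 3 with cre_vehicle 2). Such correlations cannot decide whether same-numbered libraries share a batch, and the main fit did not pair them. With the replicate block, 0 members were called in each comparison, 1 gene was called for AA14 in ctrl mice, and the Neurod4 effect in cre mice was -0.025.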
